A study of Homo sapiens with 6 samples.

Results

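The experiment described here is the transfection of A427, a human non-small cell lung carcinoma line, with siRNAs against LGR6, a gene for which the A427 control library held 5 reads. It comprised 3 of the 6 libraries in the series, found by line and siRNA in the sample labels: 1 with a control siRNA named Tax, 1 with LGR6 siRNA 2 and 1 with LGR6 siRNA 4. The other 3 libraries gave the same 3 siRNAs to a second non-small cell lung carcinoma line, HCC15. Every group was labelled as of wild-type genotype, was grown in RPMI with 5% serum, and was collected 48 h after transfection for mRNA sequencing. Each line and siRNA had 1 library, so a difference between 2 libraries of A427 has no replicate check, and nothing in the labels tells whether cultures were separate.

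LGR6 and its relatives LGR4 and LGR5 are cell-surface receptors that bind R-spondins, secreted factors which amplify Wnt signalling. With an R-spondin bound, they draw the ubiquitin ligases RNF43 and ZNRF3 away from the Wnt receptors that these ligases would remove from the cell surface. An siRNA is loaded into an Argonaute protein and directs cleavage of transcripts that match it along its length. Through the short seed at its 5′ end it can also lower transcripts that match it only in part, mostly in their 3′ untranslated regions, and a pair of siRNAs against 1 target usually differs in seed.

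Total counts in A427 were 28411980 for the control library, 25546438 for siRNA 2 and 26184125 for siRNA 4, and those of all 6 libraries ran from 25546438 to 28987906. Of 23686 genes in the table, 14481 had at least 10 reads in at least 2 libraries and were tested, and 12759 of these also had a mean of at least 1 CPM (counts scaled to a common library size) over the A427 libraries. These 12759 are called measured below. Of the epithelial markers EPCAM, KRT8, KRT18 and CDH1 were at 6.92 CPM or more in every A427 library, while KRT19 and KRT7 were at 0.229 CPM or less. Of 6 mesenchymal markers 5 reached 1 CPM in every A427 library, with VIM at 4013 CPM or more and CDH2 between 2.25 and 3.46 CPM. The other, SNAI2, was at 0.04 CPM or less. Squamous and neuroendocrine markers each had 1 of 6 at that level, SOX2 (1.68 to 3.26 CPM) and SYP (16.7 to 19.3 CPM). Of 6 lung adenocarcinoma lineage markers 0 reached 1 CPM in every A427 library, with no read of SFTPA1, SFTPB or SFTPC. SMARCA4, a chromatin remodelling gene whose loss in A427 is known, was between 8.24 and 8.63 CPM in A427. In HCC15 SMARCA4 was between 18.4 and 21.9 CPM. Of the other genes listed as reported lost in A427, SMARCA2 was between 0.725 and 1.40 CPM in A427. STK11 was between 0.508 and 1.27 CPM in A427. In the HCC15 control library SMARCA2 was at 54.5 CPM and STK11 at 29.1 CPM. CDKN2A and CDKN2B were at 0 CPM in every library of both lines. Markers of leukocytes summed to between 22.5 and 27.2 CPM, most of it CD68, those of endothelium to between 0.496 and 1.13 CPM, and those of fibroblasts to 218, 246 and 277 CPM in the control, siRNA 2 and siRNA 4 libraries, most of it COL3A1. The part of other cell types in the results was not tested.

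LGR6 had 5 reads in the A427 control library, 0 reads with siRNA 2 and 0 reads with siRNA 4. In CPM of library size the control level was 0.176 (exact 95% binomial interval 0.0571 to 0.411). By the same interval, 0 reads allow up to 0.144 CPM with siRNA 2 and 0.141 with siRNA 4. Both LGR6 siRNA libraries together held 0 of 5 reads where their sizes would give them 64.5% (exact conditional binomial test, two-sided p = 0.0056). The 95% interval for their level ran from 0% to 59.9% of the control level. That test compares the libraries, and intervals and limits cover counting error only. In HCC15 the same siRNAs left 39 and 77 reads of LGR6, beside 257 in the control library.

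The related receptor LGR4 stood at 181 reads in the A427 control, 191 with siRNA 2 and 120 with siRNA 4, which were 6.20, 7.28 and 4.35 CPM. LGR5 had 1, 1 and 0 reads, so a change in it was not detectable at this depth. RNF43 was at 40.8 CPM in the control library, 50.6 with siRNA 2 and 47.5 with siRNA 4. ZNRF3 stood at 28.0, 31.6 and 26.7 CPM in the same order. In log2(CPM + 0.5), the scale of all differences below unless another is named, the 3 measured genes of this receptor module (LGR4, RNF43 and ZNRF3) lay between 0.18 and 0.31 with siRNA 2 and between -0.47 and 0.22 with siRNA 4. Fewer cells that express a gene and less of its RNA per cell cannot be told apart in these bulk libraries.

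Both siRNA libraries of A427 differed from the control library in many genes. With siRNA 2, 95 of the 12759 measured genes (0.745%) were at least 2-fold higher than in the control library and 258 (2.02%) at least 2-fold lower. With siRNA 4, 83 genes (0.651%) were higher and 342 (2.68%) lower by that measure. The median difference over all measured genes was -0.01 with siRNA 2 and 0.01 with siRNA 4, with quartiles of -0.25 and 0.22 and of -0.24 and 0.22. Past 2-fold, then, lower genes outnumbered higher ones with each siRNA around a centre near 0. At 1.5-fold siRNA 2 had 582 genes higher (4.56%) and 1049 lower (8.22%), and siRNA 4 had 634 higher (4.97%) and 1124 lower (8.81%).

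At least 2-fold with both siRNAs and in the same direction were 31 genes (0.243%) that were higher and 40 (0.314%) that were lower, 71 in all. Both differences were taken against the same control library, whose own error enters both, so these counts do not show by themselves that the siRNAs act alike. At 1.5-fold, 228 genes (1.79%) were higher and 319 (2.5%) lower with both. The test of both LGR6 siRNA libraries of A427 against the control, in which the spread is the difference between the siRNAs within a line, called 0 of 14481 genes (0%; edgeR quasi-likelihood, Benjamini-Hochberg adjusted p under 0.05). By that test 389 genes had an unadjusted p under 0.05 where chance gives about 724. Its spread holds the difference between the siRNAs, which recurred between the lines (Pearson's r of 0.680). Of the 71 genes 64 were among the 389, but they were chosen for their differences in these same libraries, so that count restates the choice. An edgeR fit that allowed the siRNAs a difference common to both lines (the replicate block below) had 1598 genes at that p. It called 0, on 1 residual degree of freedom. The count of 389 therefore does not show that few genes differed. DESeq2 called 4, which were CKAP4, FKBP4 and RHEB among the higher and DDAH1 among the lower, and limma-voom called 0. The genes below are therefore given as measured differences between libraries.

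**Figure D1:**
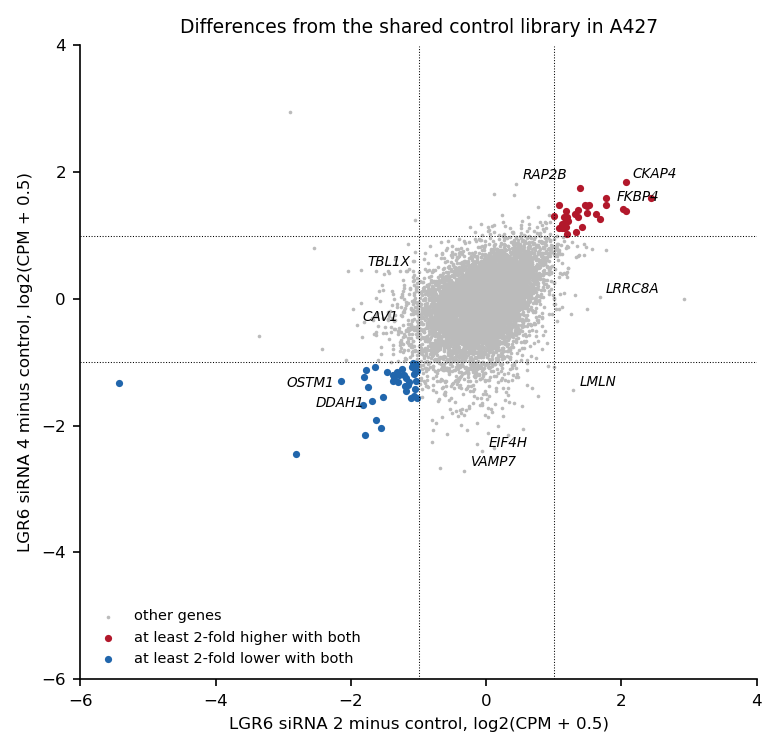
Each point is 1 of 12759 measured genes, with its difference from the A427 control library on the log2(CPM + 0.5) scale for LGR6 siRNA 2 (x axis) and LGR6 siRNA 4 (y axis). Dotted lines mark 2-fold, the 31 genes higher and the 40 lower with both siRNAs are coloured, and both axes share 1 control library.

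Among the genes higher with both siRNAs, CKAP4 led those with ample reads. Its product anchors endoplasmic reticulum membranes to microtubules and, at the cell surface, binds the Wnt antagonist DKK1. It was at 30.6 CPM in the control library, 131 with siRNA 2 and 112 with siRNA 4, differences of 2.07 and 1.85. FKBP4, an immunophilin that works with the chaperone HSP90, was at 200, 684 and 557 CPM in the same order, or 1.77 and 1.48. RHEB, the small GTPase that switches on the growth kinase complex mTORC1, stood at 37.2, 105 and 96.5 CPM, with differences of 1.49 and 1.36. In each of these 3 genes both LGR6 siRNA libraries lay well above the control library and close to one another.

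SNX30, a sorting nexin of endosomes, was at 8.53 CPM in the control library, 30.2 with siRNA 2 and 26.8 with siRNA 4. The zinc finger gene ZNF213 was at 3.08, 9.80 and 9.53 CPM, and METRNL, which encodes a secreted hormone-like protein, at 3.70, 11.3 and 11.2 CPM. SIK1, a salt-inducible protein kinase that restrains cAMP-driven transcription, was at 4.90, 14.4 and 14.5 CPM. For ZNF213, METRNL and SIK1 the siRNA libraries differed from one another by 0.04 or less on the log2 scale. MLLT1, a reader of acylated histones in the super elongation complex, was at 39.3, 102 and 97.0 CPM. EHD1, an ATPase of endocytic recycling, was at 20.7, 52.2 and 53 CPM. The receptor-like gene LDLRAD3 and the protein kinase gene SBK1 completed the named set, with differences between 1.35 and 1.63.

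GATSL1 and ANKRD20A2 belong to families of near-identical copies and are uncertain. GATSL1 had 0, 58 and 28 reads and ANKRD20A2 4, 57 and 32. HDAC3, a histone deacetylase gene, lay just outside the 2-fold limit (1.14 with siRNA 2 and 0.98 with siRNA 4). Just inside the 2-fold limit lay IKZF3 (1.01 with siRNA 2 and 1.31 with siRNA 4), a lymphoid zinc finger factor gene, and PFKP (1.20 and 1.02), which encodes a phosphofructokinase of glycolysis.

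Among the genes lower with both siRNAs, DDAH1 was the 1 called by DESeq2. Its product breaks down methylated arginines that inhibit nitric oxide synthesis. It was at 124 CPM in the control library, 38.1 with siRNA 2 and 40.1 with siRNA 4, differences of -1.69 and -1.61. HIPK3, a nuclear protein kinase, stood at 159, 60.7 and 64.3 CPM (-1.38 and -1.30), and GNB4, a G protein beta subunit, at 242, 97.7 and 97.4 CPM (-1.31 and -1.31). In these 3 genes the siRNA libraries differed from each other by less than 0.09 on the log2 scale.

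ELL2, an elongation factor of RNA polymerase II, was at 48.8 CPM in the control library, 14.2 with siRNA 2 and 18.3 with siRNA 4. CPEB3, which binds cytoplasmic polyadenylation elements in mRNA, was at 18.5, 5.95 and 4.13 CPM. OSTM1, the partner of a lysosomal chloride transporter, was at 72.5, 15.9 and 29.2 CPM. It was lower with siRNA 2 (-2.15) than with siRNA 4 (-1.30), and over both lines the direct comparison of the siRNAs passed the test for this gene, at 1.19 higher with siRNA 4 (SE 0.17, adjusted p = 0.00402, edgeR, Benjamini-Hochberg). HDAC9, a histone deacetylase with a role in muscle, was at 279, 108 and 122 CPM in A427. It was at 0.342 CPM or less in all HCC15 libraries, so it could not be followed there.

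Several genes of this set were low in A427 and rest on few reads. SEPP1, the plasma selenium carrier, had 231, 58 and 48 reads. DKK3, a secreted protein of the Dickkopf family, had 180, 55 and 63 reads. The cytokine gene TNFSF13 had 72, 9 and 21, and RASGRP3, an activator of Ras and Rap, had 63, 17 and 18. All of them were highest in the control library. The adaptor gene SHC2 and RINL, a gene of the Ras and Rab interactor family, lay between -1.20 and -1.55 with the siRNAs. GPR89C has near-identical copies and is uncertain. Just inside the limit was NFATC4 (-1.08 and -1.01), a calcium-regulated transcription factor gene.

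**Figure D2:**
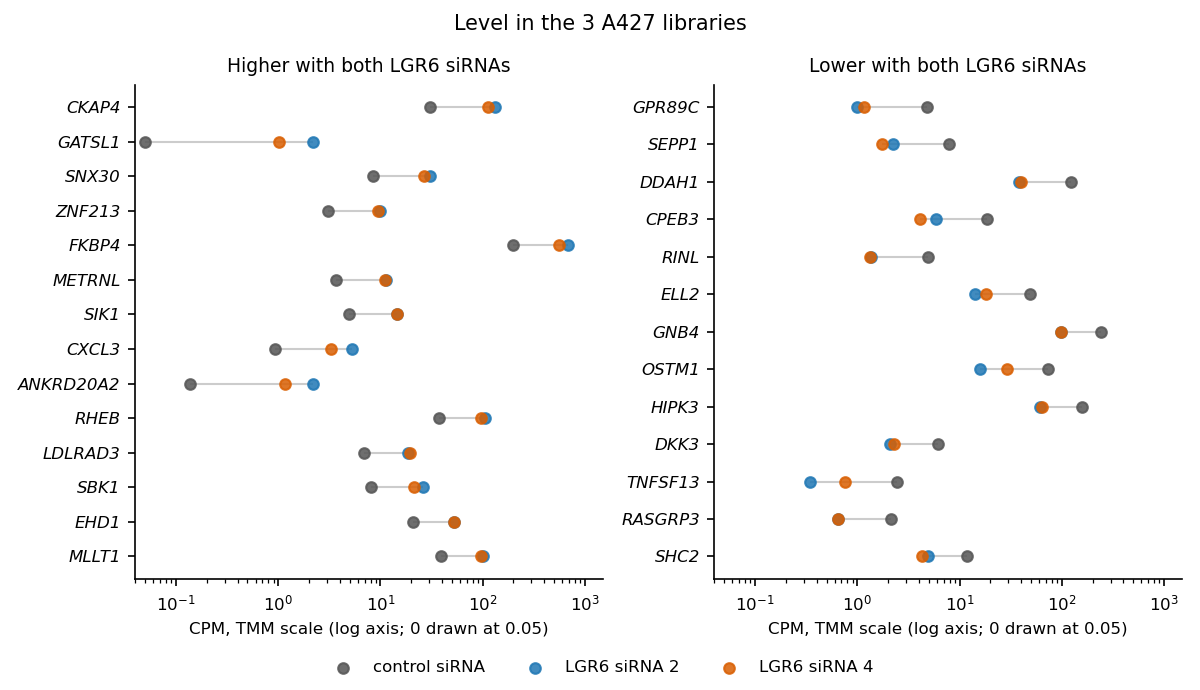
Level of the 14 named genes higher (left) and 13 lower (right) with both LGR6 siRNAs in A427, as CPM on a log axis, 1 point per library. Grey is the control siRNA, blue siRNA 2 and orange siRNA 4; a grey line joins the lowest and highest library of a gene, and GATSL1 in the control library, at 0 reads, is drawn at 0.05.

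HCC15 gave a second measurement of the same reagents in libraries that had no part in choosing these genes. Of 11577 genes measured in both lines, 44 (0.38%) were at least 2-fold higher and 59 (0.51%) at least 2-fold lower with both siRNAs in HCC15. Of the 31 genes higher with both in A427, 27 were measured in HCC15, and 15 of these (55.6%) were again at least 2-fold higher with both. Of the 40 lower genes 28 were measured there, and 9 (32.1%) were again at least 2-fold lower with both. Of the 55 measured genes 0 went 2-fold in the opposite direction with both siRNAs in HCC15.

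CKAP4 in HCC15 was at 32.6 CPM in the control library, 215 with siRNA 2 and 177 with siRNA 4, differences of 2.70 and 2.42. RHEB was at 52.9, 177 and 182 CPM, or 1.73 and 1.77. DDAH1 was at 387, 125 and 96.3 CPM, or -1.63 and -2.0. ELL2, HIPK3 and CPEB3 lay between -1.63 and -2.62 in HCC15. These genes thus stood past 2-fold in 4 of 4 LGR6 siRNA libraries, in a line with 5 LGR6 reads in its control library and in a line with 257. FKBP4 and SNX30 did so too, with differences between 1.84 and 2.55 in HCC15. The siRNAs target the same gene, and each line had 1 Tax control library, so an effect of losing LGR6, an effect that both siRNAs have on other transcripts and an effect of the Tax siRNA cannot be told apart in these differences.

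Other genes were apart from the control in A427 and close to it in HCC15. RINL was at 4.90, 1.37 and 1.34 CPM in A427 and at 4.53, 4.70 and 5.46 CPM in HCC15. RASGRP3 differed by -0.47 and -0.26 in HCC15, and STK31, a testis-expressed kinase gene, by 0.11 and -0.43 there, beside -1.06 and -1.19 in A427. PFKP was at 56.6, 131 and 115 CPM in A427, and by 0.46 and 0.25 higher in HCC15, where its control level was 508 CPM. Tested between the lines, the difference was called for 0 of 14481 genes (0%; edgeR, Benjamini-Hochberg adjusted p under 0.05), with 78 at an unadjusted p under 0.05, and DESeq2 called 0. Of these genes RINL differed most between the lines: the difference, A427 minus HCC15, was -2.01 with SE 0.50 (edgeR, Benjamini-Hochberg adjusted p = 1.0). No response particular to A427 was therefore shown.

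Many genes were apart from the control with 1 siRNA and not with the other. With siRNA 2, 27 genes were at least 2-fold higher and 138 at least 2-fold lower while siRNA 4 left them within 0.5 of the control. With siRNA 4, 23 genes were higher and 205 lower while siRNA 2 left them within 0.5. In all, 3 genes were at least 2-fold apart in opposite directions. LMLN, a metallopeptidase gene, was at 28.2 CPM in the control library, 69.6 with siRNA 2 and 10.1 with siRNA 4. ARHGAP31, a GTPase-activating protein gene, was at 1.40, 0.419 and 4.02 CPM. SERF1A, the third, has a near-identical copy and is uncertain.

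The genes lower with siRNA 2 included CAV1, the coat protein of caveolae, at 206 CPM in the control library, 54.2 with siRNA 2 and 154 with siRNA 4. TBL1X, a subunit of nuclear corepressor complexes, was at 108, 29.7 and 148 CPM. SCD5, a fatty acid desaturase gene, was at 45.6, 12.3 and 43.6 CPM, and the kinase gene TESK2 at 11.8, 2.48 and 16.2 CPM. CT45A4 belongs to a family of near-identical copies. In HCC15, CAV1 stood at -2.01 with siRNA 2 and TBL1X at -2.10, close to their A427 differences, while TESK2 stood at -0.44. Higher with siRNA 2 was LRRC8A, the essential subunit of volume-regulated anion channels, at 17.6, 57.4 and 17.9 CPM in A427 and by 1.77 in HCC15. VGF, a neuropeptide precursor gene, was at 55.2, 137 and 57.7 CPM in A427. In HCC15 VGF was higher by 2.36 with siRNA 4 and by 0.31 with siRNA 2, the reverse order. PEG10, an imprinted gene of retrotransposon origin, and NPTX2, a neuronal pentraxin gene, were higher with siRNA 2 by 1.26 and 1.20 in A427 and by 0.23 and 0.34 in HCC15. NPTX2 was at 1.29 CPM or less in every HCC15 library, so it could hardly be followed there. TICAM2, which shares its locus with a read-through gene, is uncertain.

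The 5 named genes lower with siRNA 4 came from unrelated processes. VAMP7, a SNARE of vesicle fusion, was at 124 CPM in the control library, 99.2 with siRNA 2 and 18.6 with siRNA 4, and stood at -2.94 with siRNA 4 in HCC15. EIF4H, a translation initiation factor gene, was at 382, 366 and 71.6 CPM, and PSMB2, a proteasome subunit gene, at 172, 187 and 33.5 CPM. IDH1, the cytosolic isocitrate dehydrogenase gene, was at 169, 153 and 34.0 CPM, and FNDC3A, a gene for a fibronectin type III domain protein, at 144, 180 and 32.1 CPM. For all 5 the siRNA 4 library was far below the other A427 libraries, which lay close to each other. In HCC15 they lay between -2.70 and -3.56 with siRNA 4 and between -0.32 and 0.81 with siRNA 2. Higher with siRNA 4 were RAP2B, a Ras-related GTPase gene, at 40.7, 55.7 and 145 CPM, and CCND2, which encodes cyclin D2, at 4.07, 4.46 and 13.8 CPM. FNIP2, TNFRSF21 and NRXN2 stood between 1.21 and 1.65 with siRNA 4. FNIP2 encodes a partner of folliculin, TNFRSF21 a death receptor and NRXN2 a neurexin of synapses.

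**Figure D3:**
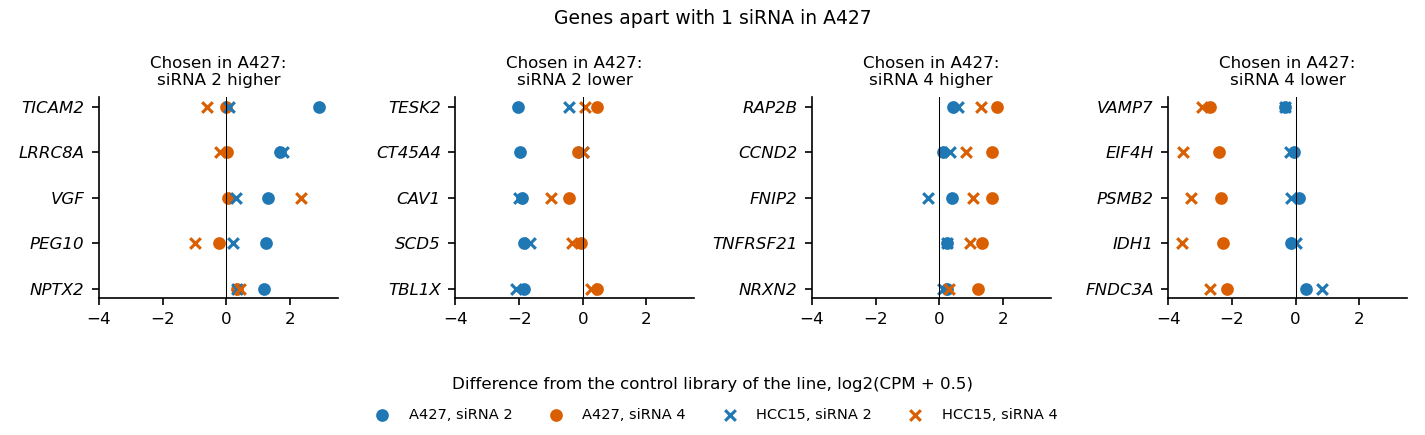
Differences from the control library of the same line, on the log2(CPM + 0.5) scale, for the 5 genes per panel chosen in A427 as at least 2-fold apart with 1 siRNA and within 0.5 with the other. Circles are A427 and crosses HCC15, blue is siRNA 2 and orange siRNA 4. For TBL1X and VAMP7 the cross of a colour lies near its circle, and for EIF4H with siRNA 4 it lies further out (-3.53 beside -2.41). TESK2, VGF, TICAM2, PEG10 and NPTX2, chosen for siRNA 2, lie within 0.5 of the control with siRNA 2 in HCC15. CT45A4 is at 0 CPM, NRXN2 at 0.312 CPM or less and NPTX2 at 1.29 CPM or less in every HCC15 library.

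Across both lines the direct test of LGR6 siRNA 4 against LGR6 siRNA 2 called 2395 of 14481 genes (16.5%), 1115 higher with siRNA 4 (7.7%) and 1280 lower (8.84%), by edgeR with Benjamini-Hochberg adjustment. The count was 646 without the HCC15 siRNA 4 library, 695 without the HCC15 siRNA 2 library, 1345 without the HCC15 control and 1359 without the A427 control. VAMP7 fell by 2.54 with siRNA 4 relative to siRNA 2 (SE 0.13, adjusted p = 3.0e-04), and EIF4H by 2.82 (SE 0.26, adjusted p = 8.6e-04). TBL1X was higher by 2.35 (SE 0.13, adjusted p = 3.0e-04), having been lower with siRNA 2. Of the genes at least 2-fold apart with 1 siRNA and within 0.5 with the other, the test called 94 of the 138 lower and 14 of the 27 higher with siRNA 2, and 179 of the 205 lower and 15 of the 23 higher with siRNA 4, each in the direction of its difference in A427. The A427 libraries took part both in this choice and in that test, so these counts are not independent of the choice.

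The HCC15 libraries give the independent count. Of 191 genes at least 2-fold lower with siRNA 2 in A427 and measured in HCC15, 102 (53.4%) were at least 2-fold lower with siRNA 2 in HCC15 and 37 (19.4%) with siRNA 4. Over all genes measured in both lines these shares were 2.54% and 5.32%. Of 293 genes at least 2-fold lower with siRNA 4 in A427, 224 (76.5%) were lower with siRNA 4 in HCC15 and 27 (9.22%) with siRNA 2. Of 81 genes higher with siRNA 2 in A427, 34 (42%) were at least 2-fold higher with siRNA 2 in HCC15 and 26 (32.1%) with siRNA 4, where all genes gave 1.34% and 1.53%. Of 69 genes higher with siRNA 4, 37 (53.6%) were higher with siRNA 4 and 22 (31.9%) with siRNA 2. Genes lower with a given siRNA in A427, whatever the other siRNA did, were thus mostly lower in HCC15 with that siRNA. The higher genes were spread more evenly over both. These sets include the genes apart with both siRNAs in A427. Those were 27 of the 81 and of the 69 higher genes, but 28 of the 191 and of the 293 lower ones. The difference between directions was not tested, and the spread without the shared genes was not counted.

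**Figure D4:**
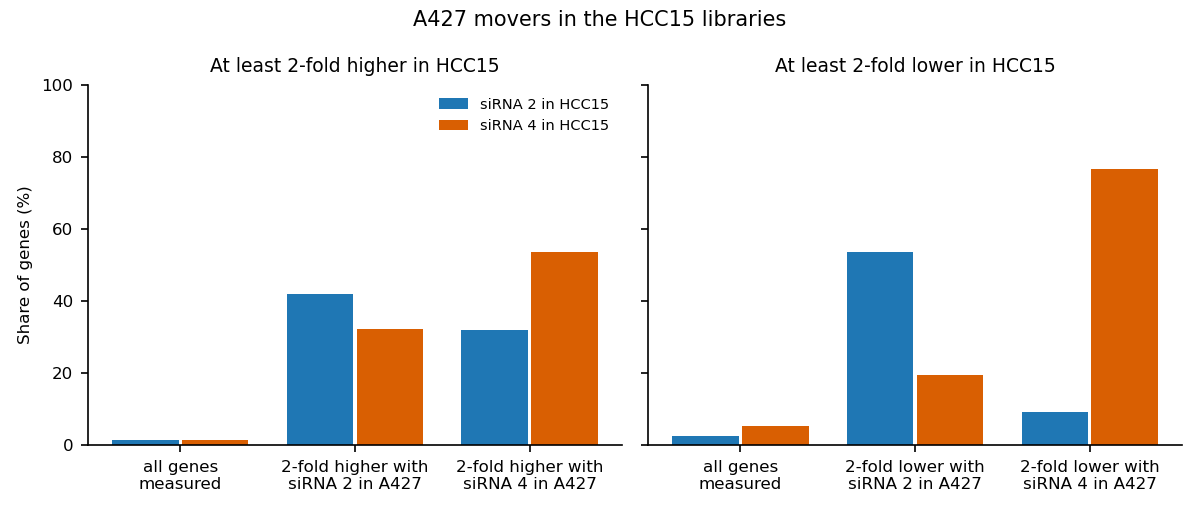
Share of genes at least 2-fold higher (left) or lower (right) in HCC15 with siRNA 2 (blue) and siRNA 4 (orange), in percent, for all genes measured in both lines and for those at least 2-fold apart with each siRNA in A427. The tallest bar is siRNA 4 on genes lower with siRNA 4 in A427, at 76.5%, beside 5.32% over all genes.

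Over the 11577 genes measured in both lines, Pearson's r of the A427 and HCC15 differences was 0.63 for siRNA 2 and 0.72 for siRNA 4. With the siRNAs crossed between the lines it was 0.24 for A427 siRNA 2 with HCC15 siRNA 4 and 0.22 for the reverse. The genes share libraries and are not independent, so these are descriptions with no p.

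The genes lower with either siRNA had a longer median 3′ untranslated region than measured genes in general. On 1 annotated coding transcript per gene (GENCODE release 29), the median length was 1791 bases for the genes at least 2-fold lower with siRNA 2 (quartiles 568 and 3267) and 1813 for those lower with siRNA 4 (692.8 and 3417). It was 1089.5 bases for all measured genes (425 and 2387), 1218 for those higher with siRNA 2 and 1479 for those higher with siRNA 4. For the 40 genes lower with both it was 876 bases and for the 31 higher with both 1305.5. The quartile ranges overlapped widely, and these lengths were not tested. At least 90.3% of the genes of each set had a transcript in the annotation. The siRNA sequences were not used here, so no seed match was looked for.

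Among gene lists, targets of NF-kappaB, the transcription factor family of inflammatory signalling, included a few chemokines that were higher with both siRNAs. Of 19 measured members 4 were at least 1.5-fold higher with both siRNAs and 0 lower, beside 1.79% and 2.5% of all measured genes. The chemokine gene CXCL3 was at 0.924 CPM in the control library (27 reads), 5.26 with siRNA 2 (138) and 3.30 with siRNA 4 (91). CXCL1 was at 3.36, 11.8 and 8.70 CPM, and CXCL2 at 6.40, 18.6 and 11.7. These chemokines attract neutrophils, and their mRNAs are alike in sequence, so the division of shared reads between them is uncertain. ICAM1, an adhesion receptor for leukocytes, was at 193, 405 and 296 CPM. The list's median was 0.05 with siRNA 2 and 0.45 with siRNA 4. With siRNA 2, 5 of 19 members were at least 1.5-fold higher and 0 lower, beside 4.56% and 8.22% of all measured genes. With siRNA 4, 8 of 19 were higher and 0 lower by that measure, beside 4.97% and 8.81%. Both counts include the 4 that were higher with both siRNAs. Also among the 8 with siRNA 4 were NFKBIA and TNFAIP3, which feed back on the pathway, at 0.73 each, and the subunit gene NFKB1 at 0.75. BIRC3, an inhibitor of cell death and one of the list's most abundant members, was lower, at 3134, 2274 and 2717 CPM.

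Over both lines, siRNA 4 gave higher levels than siRNA 2 for RELB (1.76, SE 0.32), NFKB2 (1.10, SE 0.25), TNFAIP3 (0.97, SE 0.23) and SOD2 (0.53, SE 0.15), and lower ones for IER3 (-0.64, SE 0.13). Their adjusted p lay between 0.0102 and 0.0452 (edgeR, Benjamini-Hochberg). CXCL1 and CXCL3 were at 0.114 CPM or less in every HCC15 library, so these genes could not be followed in that line, while CXCL2 differed there by 0.32 with siRNA 2 and 0.15 with siRNA 4. The list's median in HCC15 was 0.03 with siRNA 2 and -0.12 with siRNA 4 over 15 members.

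The promoters of these chemokine genes share an exact NF-kappaB site, which is shown because the genes lie in 1 cluster and were higher together. The stretches below are the 120 bases before the RefSeq start (GRCh38.p14), 5′ to 3′ on the strand of the gene, with GGGAATTTC in capitals: CXCL1 on the plus strand at chr4:73869273-73869392, CXCL2 on the minus strand at chr4:74099196-74099315 and CXCL3 on the minus strand at chr4:74038690-74038809.
CXCL1: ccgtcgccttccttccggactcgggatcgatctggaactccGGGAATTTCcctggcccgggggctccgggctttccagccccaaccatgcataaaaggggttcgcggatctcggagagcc
CXCL2: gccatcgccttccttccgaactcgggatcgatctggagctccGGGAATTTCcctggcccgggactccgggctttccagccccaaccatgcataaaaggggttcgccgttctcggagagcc
CXCL3: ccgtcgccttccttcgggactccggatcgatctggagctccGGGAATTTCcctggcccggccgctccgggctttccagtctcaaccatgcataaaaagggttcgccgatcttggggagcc
The letters begin 79 bases before the start in CXCL1 and CXCL3 and 78 bases before it in CXCL2. In CXCL8, another chemokine gene on chromosome 4, the 120 bases before the start held no GGGAATTTC on either strand. Searched on both strands over the 250 bases before the start, GGGAATTTC was in 6 of 15 NF-kappaB list members with a promoter entry (40%), in 39 of 9363 measured genes (0.417%) and in 100 of all 35116 promoters (0.285%). Of the genes at least 2-fold higher with both siRNAs it was in 2 of 21, which were CXCL1 and CXCL3, the genes that prompted the search. The list was made of known targets of this factor, so its share is a description, and a match of letters does not show binding.

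Cholesterol and fatty acid synthesis genes went opposite ways with the siRNAs. Of 22 measured members 7 were at least 1.5-fold higher and 0 lower with siRNA 2, beside 4.56% and 8.22% of all measured genes. With siRNA 4, 0 were higher and 6 lower, beside 4.97% and 8.81%. The list's median was 0.38 with siRNA 2 and -0.37 with siRNA 4. SCD, the main fatty acid desaturase gene, was at 4100 CPM in the control library, 4955 with siRNA 2 and 1361 with siRNA 4. FASN, fatty acid synthase, was at 719, 1486 and 566 CPM, and IDI1, an isomerase of the mevalonate pathway, at 180, 243 and 84.2 CPM. In all 3 the control library lay between the siRNA libraries. Over both lines 15 of the 22 members fell with siRNA 4 relative to siRNA 2 and 0 rose, beside 8.84% and 7.7% of all genes tested (edgeR, Benjamini-Hochberg adjusted p under 0.05). The difference was -1.77 for SCD (SE 0.18, adjusted p = 0.00110) and -1.38 for IDI1 (SE 0.15, adjusted p = 0.00149, edgeR, Benjamini-Hochberg). In HCC15 the median was 0.53 with siRNA 2 and -0.07 with siRNA 4.

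Ribosomal protein genes differed by little from the control. Their 32 measured members had a median of -0.20 with siRNA 2 and 0.08 with siRNA 4. With either siRNA 0 members were past 1.5-fold. All measured genes gave 4.56% higher and 8.22% lower with siRNA 2, and 4.97% and 8.81% with siRNA 4. Over both lines 14 of 32 rose with siRNA 4 relative to siRNA 2 and 0 fell, beside 7.7% and 8.84% of all genes tested (edgeR, Benjamini-Hochberg adjusted p under 0.05).

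YAP and TAZ targets, which respond to cell tension and density, included 3 of 21 measured members at least 1.5-fold lower with siRNA 2 and 7 with siRNA 4. All measured genes gave 8.22% and 8.81%, so the count with siRNA 2 was near that of genes in general. The receptor kinase gene AXL was lower by that measure with both, at 9.11, 2.78 and 5.18 CPM. CTGF, a matricellular growth factor gene and the classic target, was at 1543, 1252 and 730 CPM. NT5E, an ectonucleotidase gene, was at 102, 71.2 and 28.8 CPM. Over both lines 5 of the 21 fell with siRNA 4 relative to siRNA 2, beside 8.84% of all genes tested, among them DLC1, a tumour suppressor gene, by 1.33 (SE 0.14, adjusted p = 0.00138, edgeR, Benjamini-Hochberg). The list's median was -0.26 with siRNA 2 and -0.45 with siRNA 4. TGF-beta pathway genes had 2 of 19 at least 1.5-fold lower with siRNA 2, near the 8.22% of all measured genes, and 7 with siRNA 4, beside 8.81%. The receptor gene TGFBR2 was so with both, at 13.5, 8.16 and 8.19 CPM, while TGFBR1, for its partner, stood at 42.4, 62.7 and 80.6.

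Mesenchymal genes had a median of -0.53 with siRNA 2 and -0.04 with siRNA 4 over 14 measured members. ACTA2, smooth muscle actin, was at 34.9, 17.7 and 20.2 CPM and S100A4, a calcium-binding protein gene linked to motility, at 50.7, 30.7 and 28.7. Both were highest in the control library. TWIST1 and ZEB1, genes for transcription factors of the mesenchymal state, were lowest there, at 15.6, 20.6 and 24.3 CPM and at 25.2, 29.9 and 32.8 CPM. In HCC15 the list stood at 0.19 and 0.18. Clustered histones, whose mRNAs mostly lack poly(A) tails and are poorly caught by poly(A) selection, had a median of -0.87 with siRNA 2 and -0.32 with siRNA 4 over only 6 measured members. Targets of p53 had a median of -0.35 with siRNA 2 and -0.07 with siRNA 4. The p53-induced genes TP53INP1, at 42, 20.2 and 20.3 CPM, and ZMAT3, at 141, 77.6 and 74.3 CPM, were lower by at least 1.5-fold with both siRNAs, as was SESN1 (-0.67 and -0.69). CDKN1A, the best known target, was at 122, 106 and 123 CPM.

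Wnt and beta-catenin targets had 0 of 20 measured members at least 1.5-fold apart in the same direction with both siRNAs. Whether these genes follow R-spondin receptors in A427 was not tested. With 1.79% of all measured genes higher and 2.5% lower by that measure, a count of 0 is near the background. Their median was -0.09 with siRNA 2 and -0.05 with siRNA 4. AXIN2, a feedback inhibitor induced by the pathway, was at 335 CPM in the control library, 249 with siRNA 2 and 303 with siRNA 4, and DKK1, a secreted Wnt antagonist, at 1098, 990 and 999 CPM. NKD1, another feedback inhibitor, was at 42.7, 21.8 and 32.4 CPM, or -0.96 with siRNA 2 and -0.39 with siRNA 4. CCND1, which encodes cyclin D1, was at 1526, 1304 and 1169 CPM. Counted with siRNA 2 alone, 1 member was at least 1.5-fold higher (MYC, at 103, 186 and 151 CPM) and 3 lower, beside 4.56% and 8.22% of all measured genes. Counted with siRNA 4 alone, 1 was higher and 0 lower, beside 4.97% and 8.81%. The counts of higher members were near the background. These libraries do not show that silencing LGR6 leaves Wnt targets as they were, since A427 held 5 reads of LGR6.

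The lists around the leading single genes held few other members apart with both siRNAs. At 1.5-fold all measured genes gave 1.79% higher and 2.5% lower with both. The list of 20 endoplasmic reticulum chaperone and unfolded protein response genes also held CKAP4, the membrane anchor described above. CKAP4 was its 1 member at least 1.5-fold higher with both siRNAs, and no other member was past that measure in the same direction with both. The list's medians were -0.12 and -0.17. FKBP4 was likewise the 1 of 21 cytosolic chaperone and co-chaperone genes, with medians of 0.22 and 0.06. Of 24 RHEB and mTORC1 genes RHEB and AKT1S1 were higher by that measure. AKT1S1 encodes an inhibitory partner of mTORC1 and was at 54.5, 113 and 87.6 CPM, while MTOR stood at 167, 235 and 210. Of 9 nitric oxide and arginine metabolism genes DDAH1 and the arginine transporter gene SLC7A2 (65.7, 36.3 and 41.1 CPM) were lower and PRMT1, an arginine methyltransferase gene, was higher (100.2, 159 and 158 CPM), with list medians of -0.14 and -0.39.

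Of 25 ATF4 and amino acid response genes the amino acid transporter gene SLC7A5 was the 1 past 1.5-fold with both siRNAs, at 153, 353 and 275 CPM. The list's medians were -0.15 and -0.15 in A427 and -0.59 and -0.44 in HCC15. Hypoxia and glycolysis genes had 3 of 22 higher with both, beside 1.79% of all measured genes. They were PFKP, the glucose transporter gene SLC2A1 (11.4, 20.3 and 19.0 CPM) and the glycolytic kinase gene PGK1 (397, 609 and 626 CPM). NRF2 targets had medians of 0.33 and 0.19, with GCLC, a subunit of glutathione synthesis, at 19.5, 29.9 and 33.2 CPM. PDE4D, a cAMP phosphodiesterase gene, was at 1086, 494 and 653 CPM, and EREG, a ligand of the EGF receptor, stood at -0.80 and -0.90. APAF1, the apoptosome scaffold gene, was at 68.6, 37.4 and 25.9 CPM, and ITGB8, an integrin subunit gene that activates TGF-beta, stood at -0.68 and -2.66.

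Genes that respond to double-stranded RNA were also counted. Of 15 measured interferon-stimulated and double-stranded RNA response genes 0 were at least 1.5-fold apart in the same direction with both siRNAs, again near the 1.79% higher and 2.5% lower of all measured genes. The medians were -0.18 with siRNA 2 and 0.14 with siRNA 4. IFIT1, a gene strongly induced by interferon, was at 1.99, 1.56 and 1.16 CPM, and over both lines it fell by 0.99 with siRNA 4 relative to siRNA 2 (SE 0.24, adjusted p = 0.0294, edgeR, Benjamini-Hochberg). ISG15, a ubiquitin-like protein gene, was at 19.1, 16.6 and 17.1 CPM. The dsRNA sensor gene IFIH1 was at 444, 370 and 446 CPM. The Tax control is an siRNA as well, so a response common to all transfected siRNAs would not appear in these differences. Argonaute and microRNA machinery genes had 0 of 17 past 1.5-fold with both siRNAs, also near those shares, and medians of -0.02 and 0.02. Within that list AGO1, an Argonaute gene, was at 82.3, 125 and 69.1 CPM and DICER1, which makes mature microRNAs, at 225, 225 and 158. Over both lines AGO1 fell by 0.88 (SE 0.12) and DICER1 by 0.86 (SE 0.18) with siRNA 4 relative to siRNA 2 (adjusted p = 0.00278 and 0.0172, edgeR, Benjamini-Hochberg), as did LIN28B, which blocks maturation of let-7. TNRC6A, an Argonaute partner, rose by 0.82 and XRN1, an RNA exonuclease gene, by 0.73 in the same comparison (adjusted p = 0.00306 and 0.00939, edgeR, Benjamini-Hochberg).

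**Figure D5:**
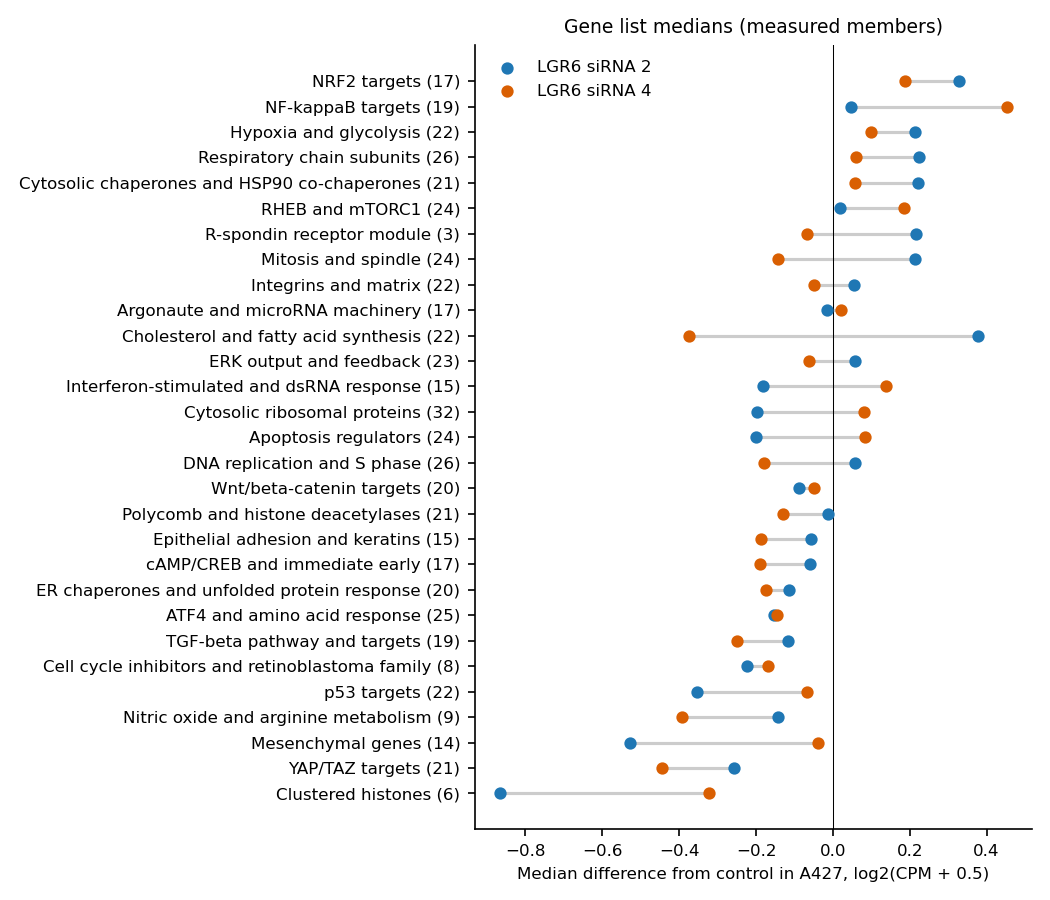
Median difference from the A427 control library, on the log2(CPM + 0.5) scale, over the measured members of each of 29 gene lists (number of members in brackets), for siRNA 2 (blue) and siRNA 4 (orange). Cholesterol and fatty acid synthesis lies on opposite sides of 0, at 0.38 and -0.37, and NF-kappaB targets reach 0.45 with siRNA 4.

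Among 26 DNA replication and 24 mitosis genes 0 were at least 1.5-fold apart in the same direction with both siRNAs, where 1.79% of all measured genes were higher and 2.5% lower, so these counts do not set the lists apart. RRM2, a subunit of ribonucleotide reductase, was at 609.5, 1222 and 615 CPM, higher with siRNA 2 alone. TOP2A, the topoisomerase of dividing cells, was at 544, 378 and 594 CPM, and over both lines it rose with siRNA 4 relative to siRNA 2 by 0.91 (SE 0.15, adjusted p = 0.00713, edgeR, Benjamini-Hochberg). The spindle checkpoint gene MAD2L1 fell by 1.82 in the same comparison (SE 0.14, adjusted p = 5.1e-04, edgeR, Benjamini-Hochberg).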

How the data were processed

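Per the submitters' processing notes, FastQC 0.11.1, STAR 2.5.3a and RSEM 1.3.3 were used on hg19; the annotation and any strand setting are not given in the sources used here. Per gene symbol, the authors deposited expected counts and TPM for all 6 libraries. In each library 5.75% to 6.29% of the expected counts were not whole, and they were rounded before testing. TPM as deposited by the authors served as an alternative. Between any 2 libraries, chi-square per degree of freedom was at least 63.3, so no library was counted as a duplicate.

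CPM were scaled by TMM, except the LGR6 levels with intervals, which use library size. A difference is log2(CPM + 0.5) with an LGR6 siRNA minus that of A427 with the Tax siRNA, which understates changes of low genes. Genes were tested with edgeR 4.0.16 (quasi-likelihood, R 4.3.3) and Benjamini-Hochberg adjustment: A427 against its control and the difference between lines in a model with line, arm and their interaction (2 residual degrees of freedom), and siRNA 4 against siRNA 2 in a fit of line plus siRNA. With 1 library per line and siRNA, p-values measure spread between the siRNAs or lines, which may be technical, and 1 control library per line is assumed to vary like the others. The fits were also run on simulated counts with independent noise. For the A427 and between-line comparisons the siRNAs did not differ in those counts, unlike in these data. That run therefore does not measure the error of the tests here.

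Per the labels, siRNA 2 and siRNA 4 were the same reagents in either line; the difference between siRNA 4 and siRNA 2 had Pearson's r of 0.680 between lines over 11577 genes, and a fit with that number as a replicate block was run.

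Named genes were the 14 in each direction with the largest smaller difference among those at least 2-fold apart with both siRNAs, 5 per siRNA and direction with the other siRNA under 0.5, up to 3 per direction in opposite directions, up to 4 per direction unlike HCC15, the receptor module, and 1 or 2 members per list; loci without a gene name and read-through genes were left out, and 1 named gene is not reported here. Other list members, genes at the 2-fold limit and genes called by DESeq2 were named after their values were seen. The members and lists were chosen with earlier results of these data known. Alternatives were size factors, library size, TPM, pseudocounts of 0.1 and 2, other CPM minimums, 1.5-fold, no read filter, DESeq2 1.42.0, limma 3.58.1, A427 alone, the block, and leaving out libraries.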

Additional observations from a re-analysis of the deposited data

Results flagged for a closer look

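RINL was flagged because both siRNA libraries of A427 lay below their control and both of HCC15 above theirs: the smaller difference was -1.53 in A427, and the differences in HCC15 were 0.05 with siRNA 2 and 0.25 with siRNA 4. Tested between the lines, the difference was -2.01 (edgeR, Benjamini-Hochberg adjusted p = 1.0), and the gene had 143, 36 and 37 reads in A427.

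Endoplasmic reticulum chaperone and unfolded protein response genes were flagged because their list median was below 0 with both siRNAs in A427, the smaller being -0.12, and above 0 with both in HCC15, at 0.36 and 0.28. The difference between the lines was not tested for the list. CKAP4, a membrane anchor gene counted in this list, was higher with both siRNAs in both lines.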

How the results depend on the processing

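The A427 test called 0 genes under every alternative but DESeq2, which called 4, including the replicate block (0 calls, smallest adjusted p 0.0669 for CKAP4 by edgeR with Benjamini-Hochberg adjustment) and the libraries left out in turn (0 to 0). The A427 control library cannot be left out of that test, nor either control library of the difference between the lines, which called 0 throughout. For LGR6 siRNA 4 against LGR6 siRNA 2, which called 2395 genes, counts with 1 library left out ran from 646, without the HCC15 siRNA 4 library, to 2126. They were 695 without the HCC15 siRNA 2 library, 1359 without the A427 control and 1345 without the HCC15 control. Of genes apart with both siRNAs, a pseudocount of 0.1 left 71 lower, and a mean of at least 5 CPM left 24 lower. With a pseudocount of 2 there were 18 higher and 18 lower with both, 58 higher and 137 lower with siRNA 2, and 51 higher and 227 lower with siRNA 4. At 1.5-fold there were 228 and 319 with both, 582 and 1049 with siRNA 2, and 634 and 1124 with siRNA 4, of which 109 higher and 82 lower with both recurred in HCC15. With TPM, 76 genes were apart with both siRNAs, of which 54 were among the 71. No called value changed sign, but values near 0 did, such as the median over all measured genes with siRNA 2, which was -0.01 and ran up to 0.02 with TPM. The cause of these changes was not tested.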
